A study of Mus musculus with 4 samples.

Results

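The genes described here are 40 cell cycle genes, chosen by name and followed through 4 droplet single-cell RNA libraries of mouse gut leukocytes. All 40 were listed in each library, out of 16500 gene symbols listed in any of them. By the step of the cycle in which their products act, 12 were taken as S-phase members and 22 as mitotic members. A further 6 were taken as broad members, on the assumption that resting cells transcribe them as well. Of these, Stmn1 and Cks1b lay mostly in dividing T cells, as given below. The libraries came from CD45.2+ cells sorted from the intraepithelial layer of stomach, small intestine, cecum and colon, with 1 library per tissue. All mice were C57BL/6 with no infection and no other treatment given in the labels, and the labelled cell type was live CD45+ cells. The extraction text is the same in every record and speaks of colons alone, so the tissue labels were followed. A tissue was a single library, so differences have no replicate check and were not tested: tissue, animal, library and sequencing run cannot be told apart. Every interval below is an exact 95% interval that covers counting error only, and since transcripts of 1 cell are not independent of each other, it is narrower than the true uncertainty.

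A cell that divides first copies its DNA in S phase and then separates the copies in mitosis. Genes for DNA synthesis and nucleotide supply are switched on by E2F factors at the start of the cycle, whereas genes for the spindle, the kinetochore and the mitotic kinases come on later, through complexes that read CHR and CCAAT elements in their promoters. Gut intraepithelial lymphocytes are mostly resident T cells that are held in a partly activated state, and they renew themselves slowly within the epithelium.

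Promoter stretches are shown to set the sequence features of mitotic members beside those of S-phase members. RefSeq promoter entries (build GRCm38.p6, 250 bases before to 50 after the start) were matched by symbol for 35 of the 40 members. The sequences below are the 150 bases just before the annotated start, 5′ to 3′ on the strand of the gene, and capitals mark every match of a searched motif. Cdc20 (chr4:118437344-118437493, minus strand) encodes the activator of the anaphase-promoting complex, Top2a (chr11:99024190-99024339, minus strand) topoisomerase II, and Ube2c (chr2:164769779-164769928, plus strand) a ubiquitin-conjugating enzyme of that complex. Mcm5 (chr8:75109359-75109508, plus strand) and Mcm6 (chr1:128359706-128359855, minus strand) encode parts of the replicative helicase, and Pcna (chr2:132253181-132253330, minus strand) the sliding clamp of DNA polymerases.
Cdc20: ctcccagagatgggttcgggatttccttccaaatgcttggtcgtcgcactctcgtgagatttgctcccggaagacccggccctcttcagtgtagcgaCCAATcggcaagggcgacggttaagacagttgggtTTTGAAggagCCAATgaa
Top2a: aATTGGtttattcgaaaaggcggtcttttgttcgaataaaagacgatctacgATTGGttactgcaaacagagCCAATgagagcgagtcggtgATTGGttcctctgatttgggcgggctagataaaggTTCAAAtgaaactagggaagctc
Ube2c: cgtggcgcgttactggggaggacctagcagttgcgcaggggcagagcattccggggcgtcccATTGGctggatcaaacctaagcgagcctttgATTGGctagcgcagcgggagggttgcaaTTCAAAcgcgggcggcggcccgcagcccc
Mcm5: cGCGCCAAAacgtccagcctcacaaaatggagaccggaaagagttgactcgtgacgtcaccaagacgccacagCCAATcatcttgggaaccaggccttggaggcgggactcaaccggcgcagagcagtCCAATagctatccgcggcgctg
Mcm6: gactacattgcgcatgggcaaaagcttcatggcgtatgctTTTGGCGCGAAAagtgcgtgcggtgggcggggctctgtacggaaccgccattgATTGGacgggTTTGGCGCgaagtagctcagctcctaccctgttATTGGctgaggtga
Pcna: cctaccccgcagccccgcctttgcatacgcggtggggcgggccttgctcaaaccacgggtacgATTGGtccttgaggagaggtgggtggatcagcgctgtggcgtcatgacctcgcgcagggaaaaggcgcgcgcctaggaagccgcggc

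The motifs were searched as exact letters on both strands of the whole 300-base window: the CHR as TTTGAA or TTTAAA, the CCAAT box as CCAAT, and an E2F site as TTTGGCGC, TTTCGCGC or TTTCCCGC. A CHR lay in 17 of the 19 matched mitotic members and in 5 of the 12 S-phase members, against 27.8% of 27025 promoters of the same length. A CCAAT box lay in 17 of the 19 mitotic and 10 of the 12 S-phase members, against 37.9% of all promoters. Both motifs together were present in 16 of the 19 mitotic members and in 10.9% of all promoters. An E2F site was found in 4 of the 12 S-phase members, namely Mcm3, Mcm5, Mcm6 and Pclaf, in 1 mitotic member, Cdk1, and in 1.91% of all promoters. In the stretches shown, Cdc20, Top2a and Ube2c each carry a CHR and CCAAT boxes, Mcm5 and Mcm6 carry E2F letters, and Pcna carries a CCAAT box alone. These are matches of letters, not measured binding. The windows follow RefSeq starts. The GENCODE annotation starts Pcna at 132253314, Ube2c at 164769898 and Cdc20 at 118437352, each within the stretch shown. The motifs found or missed, such as the E2F site in Pcna, may therefore depend on the start used, which was not tested.

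A minimum of 200 genes kept 14373 of 14378 barcodes, 3171 to 4244 per library. Median depth per cell was 2986 UMIs (unique molecular identifiers, 1 per captured transcript) in colon, 1707 in cecum, 2475 in small intestine and 2305 in stomach. The lowest cell held 1581 UMIs in the small intestine library and 291 to 361 in the others. The members held 78230 UMIs in all, 0.163% to 0.219% of each library. Cells were gated by marker transcripts: the T gate needed 2 UMIs of Cd3d, Cd3e or Cd3g, and the B, NK/ILC1, macrophage and mast gates needed 2 different markers (plasma, 3). The T gate held 3316 cells in colon, 3380 in cecum, 2458 in small intestine and 277 in stomach, and cells passing more than 1 lineage gate were left out (68 to 93 per library). Any 2 libraries shared 1 to 6 barcodes, 23 over all pairs. Levels are CPM, the UMIs of a gene per 1e6 UMIs summed over the cells of a gate.

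In T cells the summed mitotic level differed between tissues far more than the summed S-phase level did. The summed mitotic level was 660 CPM in small intestine (641 to 680), 459 CPM in colon (447 to 472), 384 CPM in cecum (369 to 399) and 219 CPM in stomach (188 to 255). The summed S-phase level was 691, 671, 586 and 605 CPM in the same order of tissues. The S-phase members thus made up 51.1% (50.1 to 52.2) of S-phase plus mitotic UMIs in small intestine, 59.4% (58.5 to 60.2) in colon, 60.4% (59.2 to 61.6) in cecum and 73.4% (69.8 to 76.8) in stomach. Fewer dividing cells and fewer transcripts per cell cannot be told apart in such sums. The small intestine had the lowest S-phase share, stomach the highest, and cecum and colon overlapped within counting error.

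**Figure D1:**
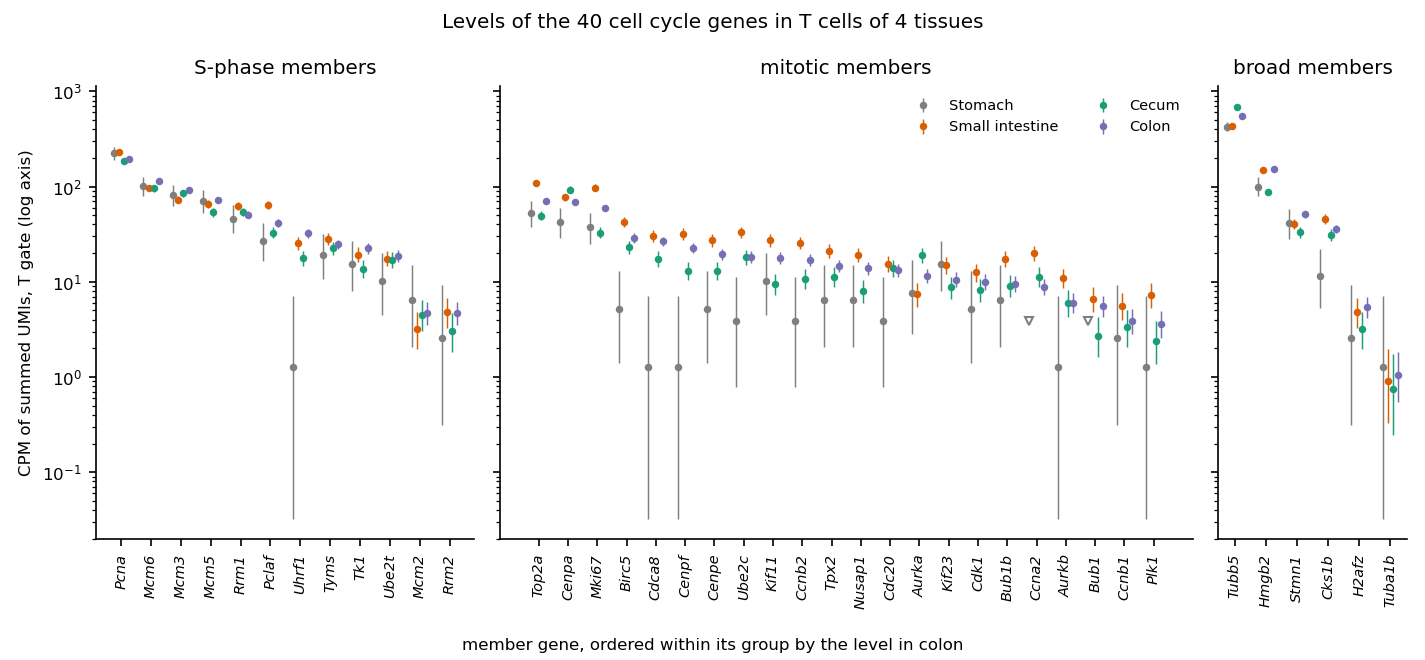
Level of each of the 40 members in T cells, as CPM of summed UMIs on a log axis, for the 4 tissues. Points are libraries, bars are exact 95% counting intervals, and open triangles mark Ccna2 and Bub1, which had 0 UMIs in stomach and are drawn at the level of 3 counts (3.85 CPM). Most mitotic members are highest in small intestine, while the S-phase members of highest level lie close together.

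Among the S-phase members, the replication clamp gene Pcna stood at 223, 229, 186 and 194 CPM in T cells of stomach, small intestine, cecum and colon, the order kept in this and the next paragraphs. Of the helicase genes, Mcm6 was at 101.3, 97.04, 95.7 and 114 CPM. Mcm3 was at 82.0, 72.7, 85.3 and 91.4 CPM. In these 3 genes the ratio farthest from colon was that of Mcm3 in small intestine, 1.26-fold lower (1.13 to 1.40). Mcm5, a further helicase subunit, was at 70.5, 66.3, 53.7 and 72.6 CPM, lowest in cecum. Rrm1, the large subunit of ribonucleotide reductase, was at 46.1, 63.2, 54.1 and 50.6 CPM. Tyms, thymidylate synthase, was at 19.2, 28.4, 22.5 and 24.7 CPM. Both of these nucleotide genes had their highest value in small intestine, but this place is not resolved. The Tyms intervals overlapped between all tissues, and the Rrm1 interval of small intestine overlapped those of stomach and cecum. Mcm2 was sparse, with 5, 21, 30 and 53 UMIs, and its intervals overlapped in all tissues. Not all S-phase members were so even. Uhrf1 was at 1.28, 25.4, 17.6 and 32.4 CPM, where the stomach value is 1 UMI, and Pclaf was at 26.9, 64.4, 32.9 and 41.6 CPM.

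The mitotic members named next showed a wider spread than Pcna, Mcm3, Mcm5 and Mcm6. Top2a, which untangles DNA before segregation, stood at 52.6, 109, 49.3 and 69.9 CPM. Mki67, which coats mitotic chromosomes and is the usual proliferation marker, was at 37.2, 97.6, 32.7 and 59.5 CPM. Birc5, a subunit of the chromosomal passenger complex, was at 5.13, 42.3, 23.1 and 28.9 CPM. All 3 were highest in small intestine, with intervals that did not overlap those of the other tissues. Cdca8, another passenger subunit, was at 1.28, 30.3, 17.5 and 26.6 CPM, and the stomach value is 1 UMI. Ccnb2, a B-type cyclin, was at 3.85, 25.7, 10.7 and 17.02 CPM. Cdk1, the mitotic cyclin-dependent kinase, was at 5.13, 12.5, 8.14 and 9.91 CPM. The values of these 3 genes kept the order small intestine, colon, cecum, stomach. The intervals overlapped for Cdca8 of small intestine and colon and for Ccnb2 of cecum and stomach. For Cdk1 they overlapped between all tissues, so its order is not resolved. The passenger kinase Aurkb was at 1.28, 10.9, 6.03 and 6.05 CPM. Plk1, a kinase of spindle assembly, was at 1.28, 7.24, 2.41 and 3.597 CPM. The lowest of the B cyclins was Ccnb1, with 2, 37, 22 and 44 UMIs.

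Cenpa and Aurka did not have their highest level in small intestine, as most mitotic members did. Cenpa, the histone variant of centromeres, was highest in cecum, at 42.3, 77.4, 92.7 and 68.6 CPM. Aurka, a centrosomal kinase, was at 7.69, 7.40, 19.0 and 11.6 CPM, again highest in cecum and about as low in small intestine as in stomach. Smaller departures were seen too. Kif23 was about as high in stomach (15.4 CPM from 12 UMIs) as in small intestine (14.9 CPM). Ccna2 and Cdc20 were higher in cecum (11.3 and 13.9 CPM) than in colon (8.86 and 13.2 CPM), with overlapping intervals.

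Of the broad members, Tubb5, a beta tubulin, was at 427, 428, 692 and 554 CPM. Hmgb2, a chromatin protein, was at 99.98, 149, 87.6 and 151 CPM. Stmn1, which destabilises microtubules, was at 41.0, 40.1, 33.0 and 50.9 CPM. Tubb5 was thus highest in cecum, and Hmgb2 was higher in small intestine and colon than in cecum and stomach. Cks1b, which binds cyclin-dependent kinases, was at 11.5, 45.9, 31.1 and 35.6 CPM. H2afz, a histone variant, held only 2, 32, 21 and 62 UMIs, and the alpha tubulin Tuba1b 1, 6, 5 and 12. The last 400 bases of these transcripts match other genes over 99% (H2afz, 2 genes) and 96.8% (Tuba1b, 10 genes) of their length, so reads could have been lost or split and both levels are uncertain.

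Against colon, the mitotic sum of T cells was 1.44-fold higher in small intestine (1.38 to 1.496), while the S-phase sum stood at 1.03-fold (0.992 to 1.07). The 3 contrasts with colon share its library and are not independent. Of 39 members with at least 20 UMIs over both libraries, 10 were at least 1.5-fold higher in small intestine, where 15.3% of all 12372 genes tested were, and 1 was at least 1.5-fold lower, against 13.8%. The higher ones were 9 mitotic members and Pclaf, the clamp-binding factor. Ccna2, cyclin A, was 2.25-fold higher (1.72 to 2.94), Plk1 2.01-fold (1.30 to 3.13), Bub1b, a spindle checkpoint kinase, 1.83-fold (1.40 to 2.40) and Ube2c 1.83-fold (1.51 to 2.22). Mki67 was 1.64-fold higher (1.47 to 1.83) and Top2a 1.56-fold (1.41 to 1.73). Of 22 mitotic members 21 had a ratio above 1, with a median log2 ratio of 0.54 against 0.0012 for all genes, and the exception was Aurka, 1.57-fold lower (1.12 to 2.22). The median of the 12 S-phase members was -0.11, with 5 above and 7 below 1. The other cell cycle genes gave a like split: of 39 further mitosis genes 13 were higher and 1, Cks2, lower, led by Espl1 (separase, 4.44-fold), Cdca2 (2.95-fold) and the kinesin Kif15 (2.33-fold). Of 33 further replication genes 5 were higher and 3 lower. Just inside the limit was Ccnb2 (1.51-fold) and just outside it Birc5 (1.46-fold). With cells of at least 1581 UMIs alone, the mitotic log2 ratio was 0.51 against 0.52 in all cells, and the 10 higher members stayed 10 in number.

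T cells of cecum against those of colon showed lower levels in many members. The mitotic sum was 1.20-fold lower (1.14 to 1.26) and the S-phase sum 1.15-fold lower (1.10 to 1.19). Of 39 members 13 were at least 1.5-fold lower, against 9.64% of all 12216 genes tested, and 1, Aurka, was higher (1.64-fold, 1.27 to 2.11), against 7.19%. The spindle checkpoint kinase Bub1 was 2.04-fold lower (1.19 to 3.66), the spindle motor gene Kif11 1.87-fold (1.40 to 2.52), Uhrf1, which keeps DNA methylation through replication, 1.84-fold (1.49 to 2.28) and Mki67 1.82-fold (1.56 to 2.13). Median depth of these T cells was 1753 UMIs in cecum and 3004 in colon. With cells of at least 1581 UMIs alone, 4 members in place of 13 were lower, the mitotic log2 ratio moved from -0.26 to -0.0256 and the S-phase ratio from -0.20 to -0.0595. This limit takes out shallow cells, and dividing cells are deep, so it does not act on all cells alike. When every gate needed 1 UMI and no limit on depth was set, the mitotic log2 ratio was -0.0753, and 7 members were lower. Of the brake genes, which hold cells out of the cycle, 4 of 12 were at least 1.5-fold higher in cecum and 0 lower, led by Cdkn1c (1.75-fold), Tob1 (1.71-fold) and Cdkn1a (1.70-fold). The small intestine, whose mitotic sum was above that of colon, also had 4 of 13 brake genes higher and 0 lower. There 15.3% of all genes were higher.

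The stomach held few T cells and 780131 UMIs in them, so single members rest on few counts. The mitotic sum was 2.10-fold lower than in colon (1.80 to 2.46) and the S-phase sum 1.11-fold lower (1.01 to 1.22). Of 39 members 25 were at least 1.5-fold lower, against 24.8% of all 11638 genes tested, and 0 higher, against 15.4%. Of the 25, 18 were mitotic and 4 were S-phase members, and in 10 of the 18 the interval excluded 1. Birc5, with 4 UMIs, was 5.63-fold lower (2.18 to 20.8), and Cdca8, with 1 UMI, 20.7-fold lower with an interval from 3.69 to 822. The S-phase member Uhrf1, also with 1 UMI, stood at 1.28 CPM against 32.4 CPM in colon. Ccna2 was listed with 0 UMIs in stomach and was at least 2.30-fold lower, taking 3 counts as the floor. Pcna stood at 1.15-fold (0.981 to 1.34). The median log2 ratio was -1.15 for mitotic and -0.26 for S-phase members, and -0.10 for all genes. Among 12 brake genes 3 were higher and 1 lower: Cdkn1a, the p21 inhibitor, stood at 306 CPM in stomach against 21.7 CPM in colon (14.1-fold, 11.8 to 16.96), Btg2 was 1.99-fold and Ccng2 1.51-fold higher, and Btg1 1.75-fold lower.

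The share of T cells with mitotic transcripts gave a related order. After each cell was thinned at random to 1000 UMIs, cells with UMIs of at least 2 mitotic members made up 4.07% (3.32 to 4.93) of 2458 cells in small intestine, 2.21% (1.73 to 2.77) of 3309 in colon, 1.59% (1.20 to 2.08) of 3325 in cecum and 1.81% (0.589 to 4.16) of 277 in stomach. Without thinning the shares were 9.56%, 8.96%, 3.76% and 9.75%. The small intestine share lay above those of colon and cecum, whose intervals overlapped. Over 20 draws of the thinning it ranged from 3.82% to 4.35% in small intestine, 1.93% to 2.78% in colon, 1.32% to 1.77% in cecum and 1.08% to 2.89% in stomach. Thinning left out 55 shallow T cells in cecum, 7 in colon and 0 in the other libraries. In stomach macrophages, of which no cell met the stricter definition that follows, the same measure gave 1.07% (0.221 to 3.09) of 281 cells at a median depth of 4835 UMIs, against 2550 in stomach T cells. The T cell shares of stomach, cecum and colon lay within this interval, and that of small intestine lay above it. B cells of colon and of stomach also had no cell that met the stricter definition. The same measure gave 3.85% (1.56 to 7.76) of 182 colon B cells, and its interval was 0.316% to 9.07% for 77 stomach B cells. The T cell share of small intestine lay within both B cell intervals, so its place above such gates depends on the gate chosen. In cells of at least 1581 UMIs the T cell shares were 0.775% for stomach, 4.07% for small intestine, 2.09% for cecum and 2.26% for colon.

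Mitotic members were detected together, in few cells. In small intestine 1588 of 2458 T cells had no UMI of any of the 22, 635 had 1 member and 127 had 2, while 53 cells had 10 or more and the highest had 22. In cecum 20 and in colon 40 T cells had 10 or more. Cells with at least 5 mitotic members, counted without thinning, are called dividing cells below; the limit was set after the distribution had been seen. Near the limit, 37, 12 and 61 T cells of small intestine, cecum and colon had 3 or 4 members, and 11, 9 and 21 had 5 or 6. By this limit 71 T cells were dividing in small intestine (2.89%, 2.26 to 3.63), 67 in colon (2.02%, 1.57 to 2.56), 36 in cecum (1.07%, 0.747 to 1.47) and 2 in stomach (0.722%, 0.0876 to 2.58). Dividing T cells were deeper, with median totals of 5519, 5209 and 7921 UMIs in small intestine, cecum and colon against 2312, 1750 and 2983 in the other T cells. Dividing T cells carried a median of 7 S-phase members in small intestine and 8 in cecum and colon, against 1 in other T cells. After thinning the medians were 2, 3 and 2, against 0.

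**Figure D2:**
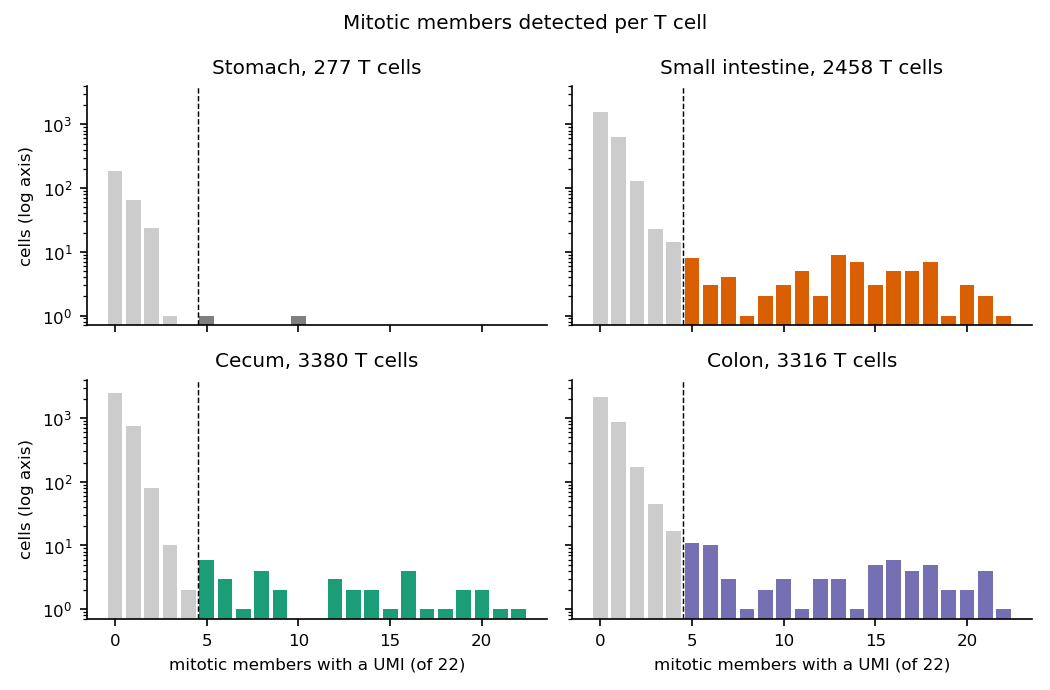
Number of T cells (log axis) by the number of mitotic members with a UMI, of 22, in each tissue. The dashed line marks the limit of 5 members, and coloured bars are dividing cells: 67 in colon, 36 in cecum, 71 in small intestine and 2 in stomach.

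These few cells held most mitotic transcripts and a minor part of the S-phase transcripts. Dividing T cells were 2.89% of cells and 6.19% of UMIs in small intestine, 2.02% and 4.70% in colon, and 1.07% and 2.88% in cecum. They held 73.2%, 67.8% and 58.0% of the mitotic UMIs, 32.5%, 23.9% and 18.6% of the S-phase UMIs, and 34.5%, 27.1% and 16.0% of the broad UMIs, in that order. The 2 dividing T cells of stomach held 18.1% of its mitotic UMIs. Mitotic members alone chose these cells, so a cell with S-phase transcripts and few mitotic ones counts as other. At least 3 S-phase members were detected in 235, 430 and 188 T cells of small intestine, colon and cecum. Of these, 62, 50 and 29 were dividing. The gap between the mitotic and S-phase shares is thus fixed in part by the definition. For single genes the share was taken with the gene itself left out of the count of members, over small intestine, cecum and colon together. The other mitotic members still chose the cells. Birc5 then had 94.8% of its UMIs in dividing cells, the kinetochore protein gene Cenpf 90.1% and Ube2c 89.96%, and the median of the 22 was 78.3%. Bub1b was at 52.7%, and the lowest were Cenpa (21.2%) and Aurka (15.6%).

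The S-phase members formed a gradient from mostly to rarely within dividing cells. Pclaf had 87.0% of its UMIs in dividing T cells and Rrm2, the small subunit of ribonucleotide reductase, 82.9%. Uhrf1 had 55.2% and thymidine kinase Tk1 49.6%. The other end was held by Pcna (14.5%), the ubiquitin-conjugating enzyme gene Ube2t (13.4%), Mcm2 (12.5%) and Mcm6 (12.3%), and the median of the 12 was 23.2%. A low share did not always go with wide detection: Mcm2 was sparse, with a UMI in 11.3% of dividing and 0.545% of other T cells of small intestine. Pcna had a UMI in 78.9% of dividing and 36.9% of other T cells of small intestine, whereas Pclaf had one in 83.1% and 1.38%. In colon the shares were 76.1% and 37.9% for Pcna and 74.6% and 1.05% for Pclaf. Dividing cells were the deeper ones, and as CPM the levels differed too: in small intestine Pclaf stood at 913 against 8.53 CPM (107-fold, 80.1 to 146) and Pcna at 671 against 199 CPM (3.36-fold, 2.94 to 3.84). Of the broad members, Stmn1 (76.2%) and Cks1b (57.2%) sat mostly in dividing cells, and Tubb5 (20.8%), Hmgb2 (20.8%) and H2afz (7.83%) did not. The 5 S-phase members with a CHR in the promoter window had a median of 49.6% in dividing cells (12.5% to 87.0%), and the 7 without had 17.8% (12.3% to 55.2%), with wide overlap. Among mitotic members the split ran the other way. The 17 with a CHR had a median of 75.2% (15.6% to 94.8%) and the 2 without, Bub1 and Nusap1, 87.6%. Cenpa and Aurka, with most UMIs outside dividing cells, carried 2 CHR and 2 CCAAT matches each.

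**Figure D3:**
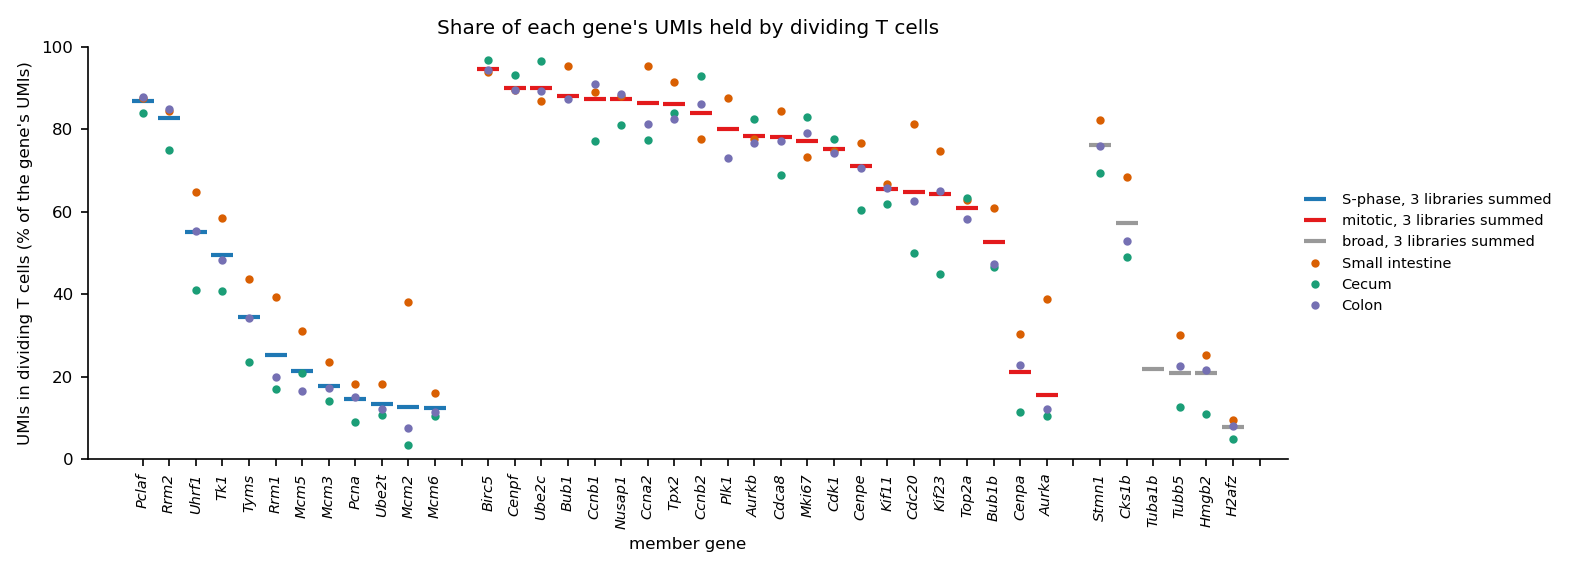
Percent of each member's T cell UMIs that lay in dividing T cells, with the gene itself left out of the definition. Bars are small intestine, cecum and colon summed, and dots are single libraries with at least 20 UMIs of the gene. Pclaf, Rrm2 and Stmn1 lie with the mitotic members, while Cenpa and Aurka lie with the low S-phase members.

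Set against the other T cells of the same library, dividing T cells had at least 1.5-fold higher levels of 12 of 12 S-phase members in small intestine (16.4% of all genes tested), 11 of 12 in cecum (18%) and 12 of 12 in colon (14.3%). The mitotic members chose these cells, so their ratios are not a result. Of the further replication genes 31 of 33, 31 of 31 and 33 of 33 were higher. The brake genes split, with 4 higher and 4 lower of 13 in small intestine, 3 and 5 of 12 in cecum and 4 and 3 of 12 in colon, where 25.1%, 22.9% and 21.6% of all genes were lower. Higher in all 3 libraries were Cdkn2c, the p18 inhibitor (5.52-, 11.4- and 7.44-fold), Rbl1, the p107 pocket protein gene (2.68-, 4.58- and 4.14-fold), and Cdkn2d, the p19 inhibitor (2.82-, 2.26- and 1.52-fold). Lower in all 3 were the p27 gene Cdkn1b (2.11-, 2.65- and 1.82-fold), Btg1 (2.25-, 1.89- and 1.84-fold) and Btg2 (1.81-, 2.75- and 1.51-fold). Cyclin D2, Ccnd2, was lower 2.76-, 1.81- and 1.73-fold, and its kinase partner Cdk4 was higher 2.24-, 2.13- and 1.85-fold. Dividing T cells had T markers at 3948, 3741 and 3994 CPM against 6023, 5350 and 5084 in the others. These markers set the T gate by a number of UMIs, and dividing cells were deeper, so the difference may come in part from the gate and was not tested. Macrophage markers were at 0 UMIs in dividing T cells of small intestine and cecum and at 4 in colon. Markers of other lineages were present in both kinds of T cell. In the order small intestine, cecum and colon, B markers were at 68.3, 31.4 and 35.4 CPM in dividing T cells against 75.6, 39.6 and 42.6 in the others. Epithelial markers were at 75.6, 68.0 and 114 CPM against 159, 137 and 213, and mast markers at 102, 131 and 211 CPM against 167, 164 and 189.

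T cells were also split by a UMI of Trdc, the constant chain of the gamma delta receptor, and of Cd8a. The mitotic sum was 710 CPM in small intestine cells with both, 547 with Trdc alone, 619 with Cd8a alone and 511 with neither. In colon it was 803, 389, 460 and 240 CPM, and in cecum 1319, 256, 548 and 186 CPM. Cells with both were highest in each of these 3 libraries, and the cecum value rests on 5 dividing cells among 142. The S-phase sum moved less: it was 707, 616, 675 and 687 CPM in small intestine, 841, 724, 691 and 478 CPM in colon and 779, 686, 707 and 453 CPM in cecum. The S-phase share in cells with both was 49.9% in small intestine, 51.2% in colon and 37.1% in cecum, against 57.4%, 66.5% and 70.9% in cells with neither.

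The classes differed in depth: T cells that were not dividing had a median of 2403 UMIs with both and 2101 with neither in small intestine, 3626 and 2646 in colon, and 2070 and 1684 in cecum. Dividing cells made up 3.16%, 1.77%, 3.08% and 1.77% of the 4 classes in small intestine, 4.65%, 1.83%, 1.96% and 0.863% in colon, and 3.52%, 1.35%, 1.90% and 0.284% in cecum. When class and mitotic members were both read at 1000 UMIs, the share with at least 2 mitotic members was 3.81% (2.69 to 5.21) in small intestine cells with both and 5.30% (3.39 to 7.85) in those with neither. In colon it was 3.99% (2.01 to 7.02) with both, 1.17% (0.380 to 2.71) with Trdc alone, 2.48% (1.64 to 3.59) with Cd8a alone and 1.98% (1.34 to 2.81) with neither. In cecum cells with Cd8a alone had 2.26% (1.35 to 3.55) and those with neither 1.37% (0.921 to 1.97). At equal depth the intervals of the 4 classes overlapped within each of these libraries.

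Among the other gates, B cells of small intestine and cecum had the highest levels of the members. The mitotic sum in B cells was 3933 CPM in small intestine (3679 to 4200), and 2546 CPM in cecum (2442 to 2653), 283 in colon (232 to 342) and 194 in stomach (138 to 265). The S-phase sum was 1976, 1274, 317 and 279 CPM in the same order. Dividing cells were 13 of 54 B cells in small intestine (24.1%, 13.5 to 37.6), 24 of 553 in cecum (4.34%, 2.80 to 6.39), 0 of 182 in colon, where 3 cells would be 1.65% and the exact interval reaches 2.01%, and 0 of 78 in stomach, where 3 cells would be 3.85% and the exact interval reaches 4.62%. Mki67 stood at 855 and 357 CPM in B cells of small intestine and cecum against 13.1 in colon (5 UMIs) and 9.96 in stomach (2 UMIs). Birc5, Ube2c, Cenpf, Ccnb2 and Pclaf had 0 UMIs in B cells of colon and of stomach. Cenpa differed from them: it stood at 207, 243, 184 and 139 CPM, so its level outside dividing cells was high in B cells too.

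Cecum B cells had a median of 6274 UMIs when dividing and 1214 otherwise. Thinning left out 92 of the 553 and gave 5.86% (3.89 to 8.41) with at least 2 mitotic members, and 20 further draws gave 6.07% to 7.16%. In small intestine 25.9% (15.0 to 39.7) of the 54 B cells had at least 2 at 1000 UMIs. Dividing B cells carried markers of germinal centre B cells, the B cells that multiply in follicles during an antibody response. Mef2b, a transcription factor of those cells, stood at 705 against 95.7 CPM in dividing and other B cells of cecum (7.37-fold, 5.45 to 10.04) and at 805 against 66.2 CPM in small intestine (12.2-fold, 6.19 to 26.6). S1pr2, a receptor that keeps cells within the germinal centre, stood at 269.8 against 35.2 CPM in cecum (7.67-fold, 4.65 to 12.96) and at 251 against 39.7 CPM in small intestine (6.32-fold, 2.43 to 19.3). Both markers were higher in dividing B cells of both libraries, with intervals that excluded 1. Bcl6, their defining repressor, was nearly absent, with 2 and 8 UMIs in dividing and other B cells of cecum and 0 in small intestine. T markers were at 1 UMI in the 13 and 2 UMIs in the 24 dividing B cells.

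**Figure D4:**
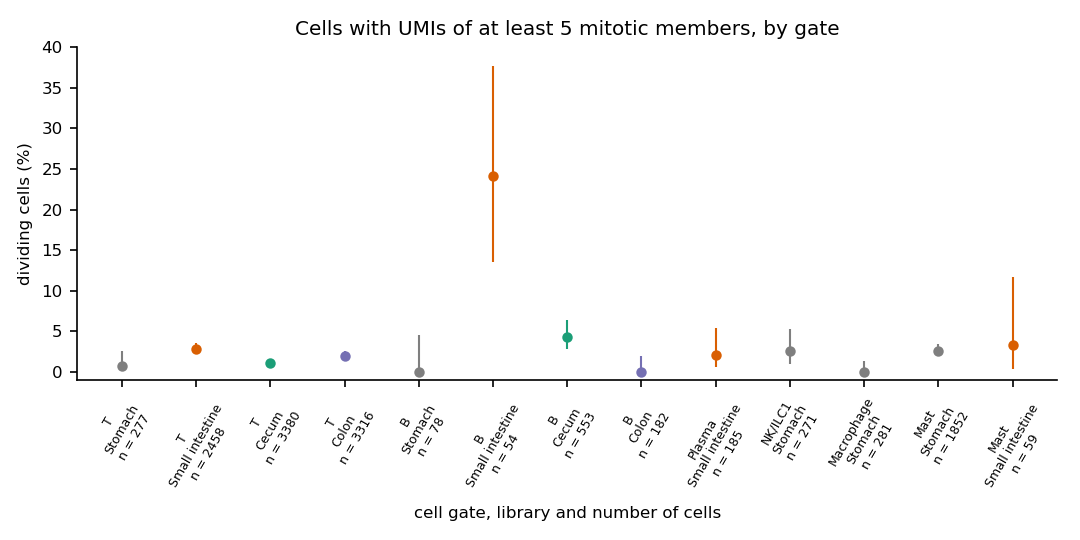
Percent of cells with UMIs of at least 5 mitotic members, in every gate of at least 50 cells, with exact 95% binomial intervals. B cells of small intestine stand at 24.1%, and the other gates lie at 4.34% or below.

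Mast cells were 1852 of the 3197 stomach cells, and had more mitotic than S-phase transcripts. The mitotic sum was 802 CPM (775 to 829) and the S-phase sum 527 CPM (506 to 549), so the S-phase share was 39.7% (38.4 to 40.9), against 73.4% in T cells of the same library. Dividing cells were 49 of the 1852 (2.65%, 1.96 to 3.48), and held 82.6% of the mitotic and 32.3% of the S-phase UMIs of the gate. At 1000 UMIs the share with at least 2 mitotic members was 3.28% (2.51 to 4.21), with 53 shallow cells left out. Dividing mast cells had a median of 5092 UMIs and the others 1897. Of 10 S-phase members tested, 10 were at least 1.5-fold higher in them (22.7% of all genes were). Pclaf stood at 659 against 10.1 CPM (65.3-fold, 46.5 to 93.8) and Tk1 at 188 against 5.91 CPM (31.8-fold, 19.4 to 53.6), while Pcna (2.93-fold) and Mcm6 (2.89-fold) differed less, as they did in T cells. Mast cell genes were then compared between dividing and other mast cells. Of 8 such genes, 5 were lower with an interval that excluded 1: the carboxypeptidase gene Cpa3 (5578 against 6692 CPM), the growth factor receptor gene Kit (821 against 1053 CPM), the transcription factor gene Gata2 (798 against 1012 CPM), the IgE receptor gene Ms4a2 (98.9 against 144 CPM) and Hdc, which makes histamine (82.4 against 269 CPM). These 5 are the markers of the mast gate, so finding them in gated cells was fixed in advance. The gate asks for 2 different markers whatever the depth, so it can shift marker CPM differently in deep and shallow cells. The protease genes Mcpt1, Mcpt2 and Cma1, which the gate did not use, were higher, at ratios of 1.06, 1.09 and 1.25. Cyclin D2 was 2.92-fold lower and cyclin D1 2.27-fold lower, and Rbl1 6.70-fold higher. T markers were at 0 UMIs, B markers at 1 and macrophage markers at 2 in the 49 dividing mast cells.

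Other gates in stomach and small intestine were small. NK/ILC1 cells of stomach had 540 mitotic and 703 S-phase CPM, and 7 of 271 were dividing (2.58%, 1.04 to 5.25). Those 7 cells held 84.4% of the mitotic UMIs of the gate. Stomach macrophages had 151 mitotic and 240 S-phase CPM, and 0 of 281 were dividing, where 3 cells would be 1.07% and the exact interval reaches 1.30%. Birc5, Ube2c and Plk1 had 0 UMIs in them, whereas Pcna stood at 138 CPM and Mki67 at 48.9 CPM. Plasma cells of small intestine had 154 mitotic and 113 S-phase CPM, at a median depth of 13001 UMIs, and 4 of 185 were dividing (2.16%, 0.592 to 5.44). Small intestine mast cells had 346 mitotic and 446 S-phase CPM, with 2 of 59 dividing.

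**Figure D5:**
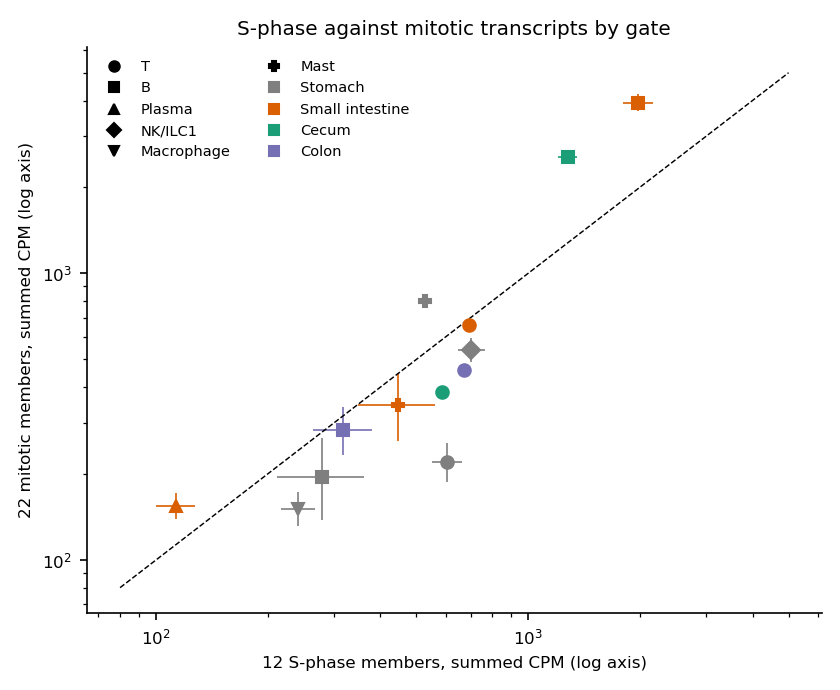
Summed CPM of the 12 S-phase members (horizontal) and the 22 mitotic members (vertical), both on log axes, for every gate of at least 50 cells. Marker shape gives the gate and colour the tissue, bars are exact 95% counting intervals, and the dashed line marks equal sums. B cells of small intestine and cecum, mast cells of stomach and plasma cells lie above the line and T cells below it.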

How the data were processed

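The deposited matrices held raw UMI counts per gene symbol and barcode for 4 libraries, per the file headers and values (whole numbers), made with the 10x Genomics 3′ v2 kit per the labels' protocols. Cell Ranger, Seurat 3.0.0 and the build GRCm38 (mm10) appear in the submitters' processing notes; further steps are not given in the sources used here. No ribosomal protein or mitochondrial symbol was listed.

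Barcodes with at least 200 genes were kept. No doublet caller was run; cells passing more than 1 lineage gate were left out. The gate rule was meant as 2 UMIs of a list, but Kit and Xbp1 occur in many T cells, so 2 different markers (3 for plasma) were required after seeing this; the T gate stayed at 2 Cd3 UMIs, and NK/ILC1 cells had no Cd3 UMI. Gates of under 50 cells are given as numbers only. UMIs were summed per gate and library and given as CPM with exact Poisson intervals; shares have Clopper-Pearson and ratios exact conditional binomial intervals, at 95%. A count of 0 was entered as 3 counts, and only in the direction it allows. Contrasts used all genes with at least 20 UMIs over both groups, and called means 1.5-fold. Cells were thinned without replacement with a fixed seed. The contrast was tested on simulated counts and recovered the folds put in. Copies of transcript ends were searched with BLAST 2.17.0 at 97% identity over 90 bases in GENCODE transcripts. Python 3.11.15, numpy 2.4.6, scipy 1.17.1 and pandas 2.3.3 were used.

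The members and lists were chosen with earlier results of these data known. The genes given with a value in every library were the 5 of each role group with most T cell UMIs and 14 named members (Mki67, Top2a, Pcna, Tyms, Cdk1, Ccnb1, Ccnb2, Aurka, Aurkb, Plk1, Mcm2, Mcm3, Mcm5, Mcm6). Uhrf1 and Pclaf were added for their spread between tissues. Other members are named for a contrast, for their order of tissues or for their place in the order of dividing-cell shares. Alternatives were other gate limits, gene minimums, thinning depths, member counts and folds. One marker of the germinal centre list, and the sum of that list, are not reported here.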

Additional observations from a re-analysis of the deposited data

Results flagged for a closer look

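Cells that no gate held were outside the comparisons above, and in the small intestine library 11 of these 260 cells were dividing (4.23%, 2.13 to 7.44), more than the 1.15% that 3 cells would make. They had a median of 23651 UMIs, against 3467 in the other ungated cells. Their S-phase share was 25.9%, with 573 S-phase and 1636 mitotic UMIs. UMIs of at least 2 of 5 epithelial markers (Epcam, Krt8, Krt18, Krt19, Cdh1) were found in 10 of the 11, against 8 of the 249 others, with 842 UMIs of Epcam and 1328 of Krt8 in the 11 cells. Ptprc, the gene of the sorted CD45 antigen, had a UMI in 2 of the 11 and in 227 of the 249. In the other libraries 2 of 352 ungated cells were dividing in stomach, 3 of 127 in cecum and 2 of 92 in colon. At least 2 epithelial markers were found in 2 of the 3 in cecum, against 0 of the 124 others there. The dividing ungated cells of stomach and colon had 0 such cells.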

How the results depend on the processing

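The 20 results were recomputed under each alternative, giving 178 values; 107 stayed within counting error or within 1.5 times the count, 67 moved and 4 changed the direction of a ratio whose interval excluded 1. No paired analysis was possible because each tissue has 1 library. The alternatives using cells of at least 1581 UMIs, 2 UMIs of any marker, and 5 mitotic members without thinning were chosen after seeing the data. The cause was not tested except where fewer cells, a stricter fold or another cut fixes the value by construction.

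The share of T cells with mitotic transcripts (stomach 1.81%, small intestine 4.07%, cecum 1.59%, colon 2.21%) became 9.75%, 9.56%, 3.76% and 8.96% without thinning, 16.6%, 17.6%, 15.4% and 15.0% with 1 member, and 0.361%, 2.40%, 0.752% and 1.36% with 3 members. Thinned to 1500 UMIs it was 5.78% in small intestine, 3.84% in colon and 2.98% in cecum. With 5 members and no thinning it was 2.89% in small intestine and 1.07% in cecum. Cecum gave 2.09% in cells of at least 1581 UMIs. Colon gave 1.17% with a gate of 1 UMI and 1.52% with 2 UMIs of any marker.

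Without the member with most UMIs of each group (Pcna and Cenpa) the S-phase share was 68.3%, 44.2%, 57.9% and 55.0%. Without the cell with most member UMIs it was 52.3% in small intestine, 60.4% in colon and 61.9% in cecum. Cecum gave 58.7% at 1581 UMIs or more, and colon 58.2% with a gate of 3 UMIs and 58.3% with mixed cells kept.

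The mitotic log2 ratio of small intestine to colon (0.52) was 0.68 with a gate of 1 UMI, 0.45 with 3 UMIs and 0.64 with 2 UMIs of any marker, and positive in each alternative. For stomach (-1.07) it was -0.82 with both looser gates. For cecum (-0.26) it was -0.0753 with 1 UMI, -0.33 with 3 UMIs, -0.34 with mixed cells kept, -0.0256 in cells of at least 1581 UMIs, -0.12 with 2 UMIs of any marker and -0.43 without Cenpa. The S-phase log2 ratio of cecum (-0.20) changed direction to 0.0156 with 1 UMI and 0.00614 with 2 UMIs of any marker, and was -0.0595 at 1581 UMIs or more and -0.25 without Pcna. For stomach (-0.15) it changed direction to 0.14 and 0.15 with the same 2 gates and was -0.32 without Pcna. For small intestine (0.0422) it was 0.28 and 0.19 with those gates and -0.0461 without Pcna, a change of sign in a ratio whose interval held 1.

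Members at least 1.5-fold higher in cecum (1) numbered 3 with a gate of 1 UMI, 2 at 1581 UMIs or more, 0 with 2 UMIs of any marker, 0 with the mean of each cell's CPM and 0 at 2-fold. Those lower (13) numbered 7, 4, 7 and, at 2-fold, 1. In small intestine those higher (10) numbered 20 with a gate of 1 UMI and 2 at 2-fold, and those lower (1) 2 with 2 UMIs of any marker, 2 with the mean of each cell's CPM and 0 at 2-fold. In stomach those higher (0) numbered 2 with either looser gate and 2 with the mean of each cell's CPM, and those lower (25) 15, 14 and, at 2-fold, 15.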

Other observations

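Cells that passed more than 1 lineage gate numbered 68 in colon, 93 in cecum, 87 in small intestine and 83 in stomach, and 2, 3, 3 and 1 of them were dividing. Gates of under 50 cells held few dividing cells: 3 of 11 plasma cells in cecum, 1 of 3 plasma cells in stomach, 1 of 36 macrophages in small intestine, and 0 of the NK/ILC1 cells of small intestine (32), cecum (48) and colon (49).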
